A study of Rattus norvegicus with 16 samples.

Results

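Glucocorticoids reach the aged brain through a pair of nuclear receptors, and 6 genes of that pathway were followed here across tissue, diet and duration. The genes are Nr3c1 and Nr3c2, which encode the glucocorticoid and mineralocorticoid receptors, and Fkbp5, Sgk1, Tsc22d3 and Zbtb16, which are known to respond to the hormone. They were chosen by name. Each symbol stood alone in the annotation of exactly 1 transcript cluster, the set of probes that an array sums into a gene value. These 6 clusters were drawn from 27342, of which 15097 carry exactly 1 gene symbol.

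In the rat the main glucocorticoid is corticosterone, which crosses into cells and binds receptors held in the cytoplasm by Hsp90 and its cochaperones. The hormone-bound receptor enters the nucleus, binds short palindromic sites in DNA or other transcription factors, and raises or lowers nearby genes. The mineralocorticoid receptor binds corticosterone more tightly than the glucocorticoid receptor does, and hippocampal neurons are known for carrying both, which is why the hippocampus is studied as a site of feedback on the stress axis and of its changes with age.

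The samples were hippocampus and cortex of male Sprague-Dawley rats, wild-type animals aged 15 months when the experiment began, which ate chow with curcumin or control chow without it for 6 or 12 weeks. Curcumin is the yellow polyphenol of turmeric. The groups, in each tissue, were thus 6-week curcumin, 12-week curcumin, 6-week control and 12-week control, and every rat shared strain, sex and starting age. Both tissues came from the same rats. Tissue of 3 rats was pooled before RNA extraction, 6 rats made up a group, and each of the 8 groups has 2 arrays. Values are deposited log2 signals, so that differences between them are log2 fold changes. Sample labels describe both arrays of a group as biological repeats, yet the design text speaks of duplicate hybridizations of each pooled RNA. The p-values therefore measure the spread between these arrays, not between single rats. That spread includes differences in tissue content. The mean of 6 choroid plexus genes was 5.65 and 7.82 on the arrays of 6-week curcumin hippocampus. That of 6 striatal genes was 9.00 and 6.86 on those of 6-week control cortex. How much of the remaining spread is technical is not known. No hormone level was analysed here, and the hour at which the rats were killed is not given in the sources used here.

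Arrays of a group correlated at 0.990 to 0.996 across all clusters. The tissue labels were checked with the measured genes of dentate granule cells, which were Prox1, C1ql2 and Tdo2. Prox1 averaged 7.77 in hippocampus (lowest 7.31) and 6.20 in cortex (highest 6.81), and C1ql2 averaged 8.17 in hippocampus and 6.32 in cortex. Tdo2 did not separate the tissues, at 4.72 in hippocampus and 4.73 in cortex, where the lowest value of any cluster was 4.33. The cortical neuron markers were higher in hippocampus, with 8.27 against 7.78 in cortex for Fezf2 and 9.15 against 8.86 for Rasgrf2. The cortex label thus rests on low values of Prox1 and C1ql2 only. Single arrays carried markers of neighbouring tissue. The mean of 6 choroid plexus genes was 7.82 on curcumin replicate 2 and 8.29 on control replicate 2 of the 6-week hippocampus, against 5.49 to 6.41 on the other 14 arrays. In the 6-week control cortex, 6 striatal genes averaged 9.00 on replicate 1 and 5 olfactory bulb genes 8.76 on replicate 2. The striatal mean was also 8.38 on replicate 2 of the 12-week control cortex, 7.96 on replicate 2 of the 6-week curcumin cortex and 7.53 on replicate 2 of the 12-week curcumin cortex, against 6.66 to 6.86 on the other 12 arrays. The mean of 6 meninges genes was highest on replicate 1 of the 12-week control cortex (7.26). Values without single arrays are given beside the results that they move most.

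The start regions of 3 of the genes are shown first. RefSeq promoter windows on the rat assembly GRCr8, which run from 250 bases before a transcript start to 50 after it, were found for 4 of the 6 genes (9 windows). Nr3c2 and Zbtb16 are named only. The windows printed are those of Nr3c1, whose value changed with curcumin in the cortex, and of Sgk1 and Tsc22d3, the response genes with the largest curcumin values there. All 3 lie on the minus strand and are written 5′ to 3′. Capitals mark the GC box core GGGCGG, the TATA box core TATAAA and the spaced receptor core ACANNNTGT, each searched on both strands, so that CCGCCC is GGGCGG on the other strand.
Nr3c1, chr18:31613390-31613689: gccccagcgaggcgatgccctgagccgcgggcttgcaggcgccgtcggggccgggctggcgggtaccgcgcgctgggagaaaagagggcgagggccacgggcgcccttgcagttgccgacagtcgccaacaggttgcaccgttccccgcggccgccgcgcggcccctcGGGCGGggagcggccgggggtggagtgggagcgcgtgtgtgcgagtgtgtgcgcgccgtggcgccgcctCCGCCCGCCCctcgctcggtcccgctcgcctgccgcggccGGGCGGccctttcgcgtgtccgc
Sgk1, chr1:24804782-24805081: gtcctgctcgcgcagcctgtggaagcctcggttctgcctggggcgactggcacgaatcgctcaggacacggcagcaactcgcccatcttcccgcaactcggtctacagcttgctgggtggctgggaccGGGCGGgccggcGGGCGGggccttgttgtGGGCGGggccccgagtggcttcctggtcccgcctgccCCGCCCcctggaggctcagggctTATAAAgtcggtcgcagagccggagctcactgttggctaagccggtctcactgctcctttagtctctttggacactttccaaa
Tsc22d3, chrX:109065381-109065680: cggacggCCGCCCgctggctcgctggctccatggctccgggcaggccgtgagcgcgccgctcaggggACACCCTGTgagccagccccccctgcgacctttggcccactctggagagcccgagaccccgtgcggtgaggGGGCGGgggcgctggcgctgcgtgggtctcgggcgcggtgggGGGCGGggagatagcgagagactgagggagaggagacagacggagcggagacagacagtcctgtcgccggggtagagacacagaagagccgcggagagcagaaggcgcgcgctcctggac

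The Nr3c1 window shown is 79% G and C with 49 CG pairs, against medians of 51.7% and 7 over all 33469 rat windows. The other Nr3c1 window has 66% and 31, and likewise no TATAAA. The window shown holds GGGCGG and no TATAAA. The Sgk1 window shown is 66% G and C and has both, with TATAAA 33 bases before the start. Of the other Sgk1 windows, that with 51.7% G and C has no TATAAA and that with 40.7% has no GGGCGG. The Tsc22d3 window shown holds the only ACANNNTGT among the 9, 183 bases before the start, where 6.86% of all windows have such a core. It has no TATAAA, while another Tsc22d3 window (50.7% G and C) has TATAAA 44 bases before its start. The full palindrome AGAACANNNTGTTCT was in 0 of the 9 windows and in 0.0149% of all windows, and TGTTCT, 1 arm of it, was in 0 of 9 and in 20.7% of all. TATAAA was in 3 of the 9 windows and 14.2% of all, and GGGCGG in 7 of the 9 and 33.1% of all. These counts describe letters in short windows. Sequence farther from the start was not searched, so they do not tell whether a gene has receptor sites. The longer palindrome contains both ACANNNTGT and TGTTCT, so the searches overlap.

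The first question was how the pathway differs between the tissues. The mineralocorticoid receptor separated them completely. Nr3c2 (transcript cluster 10810539, chr19:47619853-47964089) ran from 8.61 to 9.03 on 8 hippocampal arrays with a median of 8.90, against 7.55 to 7.86 on 8 cortical arrays with a median of 7.70. Every hippocampal array lay above every cortical array. The means were 8.89 ± 0.14 in hippocampus and 7.69 ± 0.11 in cortex (SD, n = 8 each), a difference of 1.20 (SE 0.0455, limma adjusted p = 2.96e-07), which is 2.3-fold. In bulk tissue, more cells that carry a transcript and more transcript per cell cannot be told apart.

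The glucocorticoid receptor did not follow it. Nr3c1 (10804132, chr18:31522783-31644508) ran from 8.53 to 8.91 in hippocampus (median 8.76) and from 8.41 to 9.05 in cortex (median 8.80). The cortical range enclosed the hippocampal one. The difference was 0.01 (95% confidence interval -0.10 to 0.13, limma adjusted p = 0.948).

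Among the response genes, Fkbp5 and Zbtb16 were higher in hippocampus. Fkbp5 (10831940, chr20:6458931-6577227) encodes an Hsp90 cochaperone that lowers the affinity of the glucocorticoid receptor for its hormone, and it is itself induced by that receptor. It averaged 8.33 ± 0.08 in hippocampus (8.19 to 8.40) and 7.98 ± 0.13 in cortex (7.82 to 8.19; SD, n = 8 each). The ranges touched at 8.19, and the difference was 0.35 (SE 0.0491, limma adjusted p = 9.85e-04). In the 6-week groups alone, a comparison chosen after the marker values above were seen, the Fkbp5 difference was 0.23 (adjusted p = 0.13), and in the 12-week groups alone 0.47 (adjusted p = 0.00244).

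Zbtb16 (10917116, chr8:57885886-58073507) encodes the zinc finger repressor PLZF. It averaged 9.10 ± 0.16 in hippocampus (8.92 to 9.33) and 8.79 ± 0.15 in cortex (8.45 to 8.92; SD, n = 8 each), again with ranges that met at an end. The difference was 0.32 (SE 0.0624, limma adjusted p = 0.00816), and it was 0.23 (adjusted p = 0.179) in the 12-week groups alone and 0.25 (adjusted p = 0.149) on curcumin chow alone.

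The remaining response genes overlapped between the tissues. Sgk1 (10717331, chr1:24799391-24916886) encodes the serum- and glucocorticoid-regulated kinase, which keeps sodium channels at the cell surface. It ran from 10.09 to 10.56 in hippocampus (median 10.18) and from 9.53 to 10.48 in cortex (median 9.92), a difference of 0.21 (95% confidence interval 0.02 to 0.40, limma adjusted p = 0.173). Tsc22d3 (10939516, chrX:109006410-109066389), which encodes the leucine zipper protein GILZ, ran from 7.83 to 8.21 in hippocampus and from 7.74 to 8.43 in cortex, a difference of 0.00 (95% confidence interval -0.12 to 0.13, adjusted p = 0.986). Cortical arrays thus spread more widely than hippocampal arrays in both genes, with an SD of 0.16 in hippocampus and 0.36 in cortex for Sgk1. In all, 3 of 6 genes passed, each higher in hippocampus, where 9.67% of all clusters passed in either direction and 6.05% were higher. The 6 differences had a median of 0.26, against 0.00 over all clusters.

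**Figure D1:**
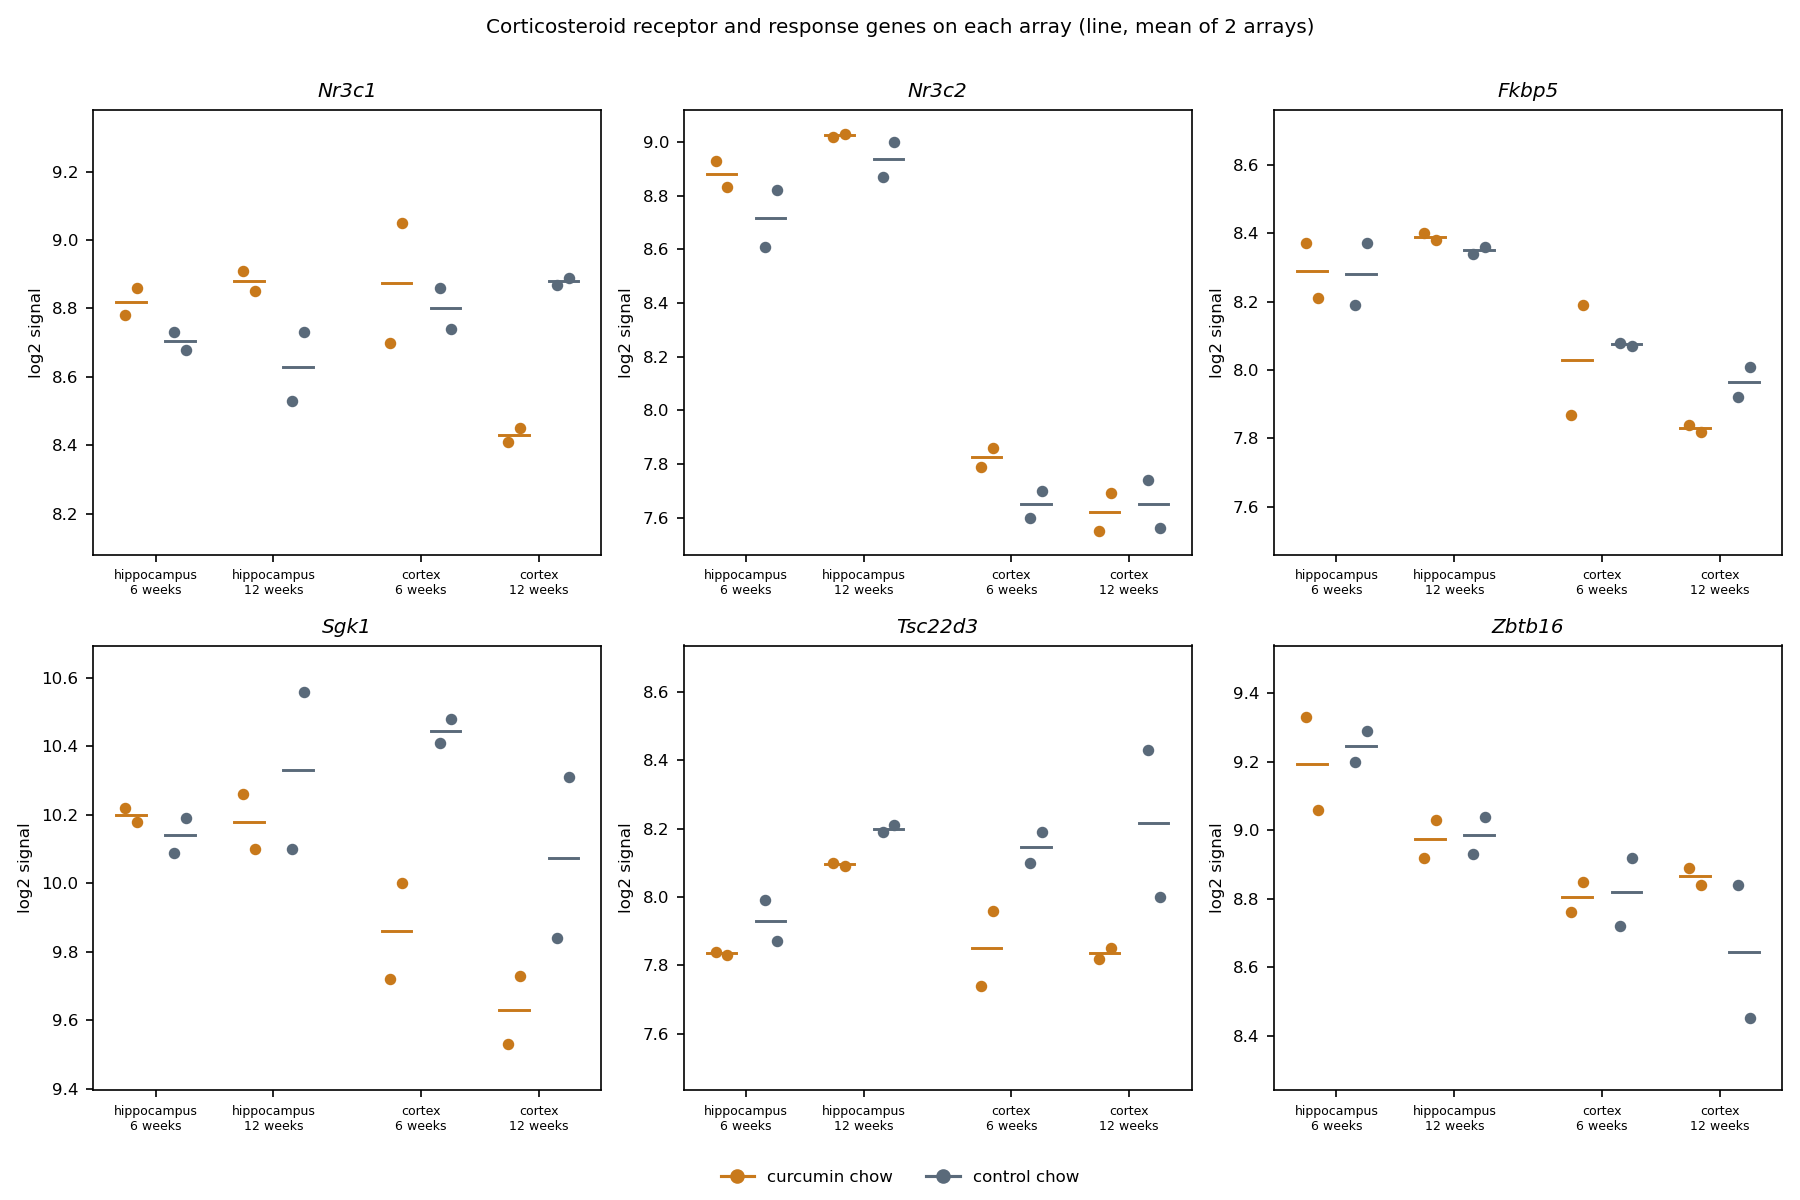
Log2 signal of the 6 genes on each of the 16 arrays (vertical axis, with its own range in each panel), by tissue and duration, curcumin in orange left of control in grey. Points are arrays and lines are means of 2 arrays. Nr3c2 lies between 8.61 and 9.03 in hippocampus and between 7.55 and 7.86 in cortex, and the 12-week curcumin cortex is the lowest group for Nr3c1 at 8.41 and 8.45.

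The second question was what curcumin chow did to these genes in each tissue. Here and below, groups that do not overlap are 2 arrays against 2. The share of all clusters that separate in this way was not counted, so such separation is a description only. Across the 4 comparisons, 1 gene passed in 1 comparison, and that was the glucocorticoid receptor in the cortex after 12 weeks. Nr3c1 read 8.41 and 8.45 in 12-week curcumin cortex, against 8.87 and 8.89 in 12-week control cortex. The arrays of each group lay within 0.05 of each other, and the groups stood well apart. Nr3c1 fell by 0.45 on the log2 scale (SE 0.103, 95% confidence interval -0.68 to -0.22, limma adjusted p = 0.0412), to 0.732 of the control level. At this threshold 3.24% of all clusters passed in that comparison and 1.59% were lower.

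The Nr3c1 call was a narrow one. Leaving out any 1 of the 4 arrays kept a value of -0.47 to -0.43 but raised the adjusted p to between 0.138 and 0.202. It was also lost when only the 8 cortical arrays (adjusted p = 0.159) or only the 4 arrays of the comparison (adjusted p = 0.123) were fitted. Marker means on those arrays, in the order replicate 1 and replicate 2, were 8.53 and 8.97 with curcumin against 8.73 and 9.20 in controls for 10 oligodendrocyte genes, and 6.84 and 7.53 with curcumin against 6.79 and 8.38 in controls for 6 striatal genes. The part of these markers in the Nr3c1 value was not tested.

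In the other groups Nr3c1 lay close to its control or above it. It read 8.70 and 9.05 in 6-week curcumin cortex and 8.86 and 8.74 in 6-week control cortex, which overlap (0.07, SE 0.103, limma adjusted p = 0.881). In hippocampus it read 8.78 and 8.86 after 6 weeks of curcumin, against 8.73 and 8.68 in controls (0.11, SE 0.103, adjusted p = 0.9999). After 12 weeks it read 8.91 and 8.85 with curcumin, against 8.53 and 8.73 in controls (0.25, SE 0.103, adjusted p = 0.948). In hippocampus both curcumin groups thus lay above their controls on each array, without passing the test.

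The opposite signs at 12 weeks were tested directly. The Nr3c1 effect of curcumin in hippocampus minus that in cortex was 0.70 (SE 0.146, 95% confidence interval 0.38 to 1.02, limma adjusted p = 0.0923), which did not pass, and 0.19% of all clusters did. The cortical effect at 12 weeks minus that at 6 weeks was -0.52 (SE 0.146, adjusted p = 0.106), where 1.47% of all clusters passed. These contrasts share the 12-week cortical arrays with the comparison that passed, so they are not separate evidence for it. Of the 6 genes, 0 passed in any of the 4 contrasts between effects, and over all clusters 0% passed in the contrast of durations in hippocampus and 0% in the contrast of tissues at 6 weeks.

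Ordering the 8 group means of Nr3c1 put 12-week control cortex first at 8.88 and 12-week curcumin cortex last at 8.43. Between neighbours in that order the ranges of the 2 arrays overlapped in 5 of 7 steps. The exceptions were 6-week control cortex over 6-week control hippocampus, and the step down to 12-week curcumin cortex.

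The mineralocorticoid receptor moved little with diet. In hippocampus Nr3c2 read 8.93 and 8.83 after 6 weeks of curcumin against 8.61 and 8.82 in controls, and 9.02 and 9.03 after 12 weeks against 8.87 and 9.00 in controls. In cortex it read 7.79 and 7.86 after 6 weeks of curcumin against 7.60 and 7.70 in controls, and 7.55 and 7.69 after 12 weeks against 7.74 and 7.56 in controls. Curcumin arrays lay above the controls in 3 of the 4 comparisons, by 0.17, 0.09 and 0.18, while the 12-week cortex groups overlapped (-0.03). None passed (limma adjusted p = 0.481 to 0.9999), and the mean of the 4 effects was 0.10 (95% confidence interval 0.00 to 0.20, adjusted p = 0.537).

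The cochaperone gene Fkbp5 stayed close to its controls. In hippocampus it read 8.37 and 8.21 after 6 weeks of curcumin against 8.19 and 8.37 in controls, and 8.40 and 8.38 after 12 weeks against 8.34 and 8.36 in controls. In cortex it read 7.87 and 8.19 after 6 weeks of curcumin against 8.08 and 8.07 in controls, and 7.84 and 7.82 after 12 weeks against 7.92 and 8.01 in controls. The 6-week groups overlapped in both tissues, and at 12 weeks curcumin arrays were above controls in hippocampus and below them in cortex, by small amounts. The 4 differences ran from -0.13 to 0.05 and did not pass (limma adjusted p = 0.644 to 0.9999). The tissue contrast of the effects at 12 weeks was 0.18 (SE 0.139, adjusted p = 0.768).

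Sgk1 had the largest value of any of the genes. In 6-week cortex it read 9.72 and 10.00 with curcumin, against 10.41 and 10.48 in controls, and in 12-week cortex 9.53 and 9.73 with curcumin, against 9.84 and 10.31 in controls. In both cortical comparisons every curcumin array lay below every control array. The differences were -0.59 at 6 weeks (SE 0.172, 95% confidence interval -0.96 to -0.21, limma adjusted p = 0.199) and -0.45 at 12 weeks (SE 0.172, 95% confidence interval -0.83 to -0.07, adjusted p = 0.223), so neither passed. The 6-week value is 0.666 of the control level, just outside the limit of 0.66-fold that the study used without a test. In hippocampus Sgk1 read 10.22 and 10.18 after 6 weeks of curcumin against 10.09 and 10.19 in controls, and 10.26 and 10.10 after 12 weeks against 10.10 and 10.56 in controls. Those groups overlapped (0.06 and -0.15).

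Sgk1 is also expressed in oligodendrocytes, the myelin-forming cells, and 10 marker genes of these cells moved beside it on the cortical arrays. In 6-week cortex the marker mean was 8.23 and 9.14 with curcumin against 9.68 and 9.26 in controls, and in 12-week cortex 8.53 and 8.97 with curcumin against 8.73 and 9.20 in controls. The median difference of the 10 markers was -0.81 at 6 weeks and -0.14 at 12 weeks, negative for 10 of 10 markers both times, and 0 of them passed. In hippocampus the medians were 0.05 at 6 weeks and 0.15 at 12 weeks. The most abundant marker, Mbp, ran from 10.12 to 11.13 in hippocampus and from 9.52 to 11.03 in cortex, so it varied in both tissues and more widely in cortex. The source of that spread was not tested. The part of the oligodendrocyte content in the Sgk1 values was not tested. The 6-week Sgk1 value was -0.62 without the control array high in striatal markers (replicate 1), -0.55 without that high in olfactory bulb markers (replicate 2), and -0.73 to -0.45 over the 4 arrays left out in turn. The 12-week value depended more on single controls. It was -0.21 (limma adjusted p = 0.77) without control replicate 2, which has high striatal markers, and -0.69 (adjusted p = 0.16) without control replicate 1.

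**Figure D2:**
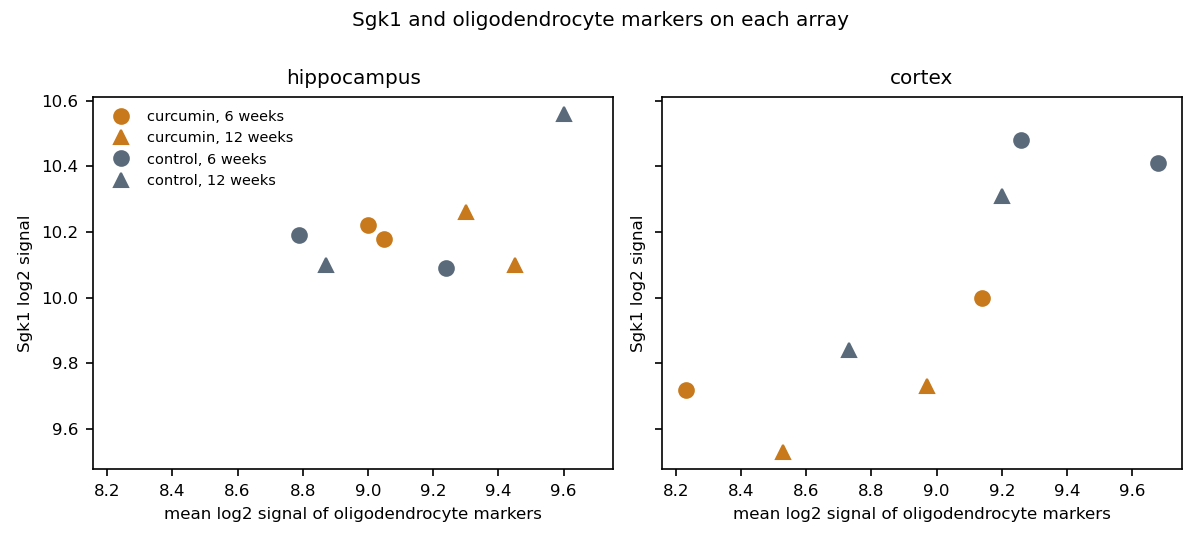
Sgk1 log2 signal (vertical axis) against the mean log2 signal of 10 oligodendrocyte marker genes (horizontal axis) on the 8 arrays of each tissue. Circles are 6-week and triangles 12-week groups, curcumin in orange and control in grey. On the cortical arrays Sgk1 runs from 9.53 to 10.48 while the marker mean runs from 8.23 to 9.68, and the arrays low in one are mostly low in the other.

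Tsc22d3 was the only gene whose value was negative in all 4 curcumin comparisons. In cortex it read 7.74 and 7.96 after 6 weeks of curcumin against 8.10 and 8.19 in controls, and 7.82 and 7.85 after 12 weeks against 8.43 and 8.0 in controls. In hippocampus it read 7.84 and 7.83 after 6 weeks of curcumin against 7.99 and 7.87 in controls, and 8.10 and 8.09 after 12 weeks against 8.19 and 8.21 in controls. Every curcumin array was below every control array of its tissue and duration, a separation of 2 arrays from 2 whose share over all clusters was not counted. The differences were -0.30 and -0.38 in cortex at 6 and 12 weeks (limma adjusted p = 0.33 and 0.111), and -0.09 and -0.11 in hippocampus (adjusted p = 0.9999 and 0.9995). The mean of the 4 was -0.22 (SE 0.0583, 95% confidence interval -0.35 to -0.09, adjusted p = 0.219). Without replicate 2 of the 12-week control cortex, an array with high striatal markers, the 12-week cortical value was -0.60 (adjusted p = 0.0245), and without replicate 1, the array highest in meninges markers, it was -0.17 (adjusted p = 0.63). The size of the Tsc22d3 value in 12-week cortex thus depends on which control array is kept.

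Zbtb16 went its own way. In 12-week cortex it read 8.89 and 8.84 with curcumin against 8.84 and 8.45 in controls, a difference of 0.23 (SE 0.125, limma adjusted p = 0.465) that was 0.03 (adjusted p = 0.98) without the low control replicate 2. In 6-week cortex it read 8.76 and 8.85 with curcumin against 8.72 and 8.92 in controls. In hippocampus it read 9.33 and 9.06 after 6 weeks of curcumin against 9.20 and 9.29 in controls, and 8.92 and 9.03 after 12 weeks against 8.93 and 9.04 in controls. Those 3 pairs of groups overlapped, with differences from -0.04 to -0.01.

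Counted together, 0 of 6 genes passed in hippocampus at 6 weeks (0% of all clusters passed), 0 in cortex at 6 weeks (0.106%), 0 in hippocampus at 12 weeks (0.00366%) and 0 in the mean of the 4 effects (0.0146%). At an unadjusted p under 0.05 the numbers were 0, 2, 1 and 3 of 6, against 2.03%, 12%, 5.11% and 9.06% of all clusters. In 12-week cortex the number was 3 of 6, against 15.1%. The median of the 6 differences was 0.03 in hippocampus and -0.03 in cortex at 6 weeks, and 0.02 in hippocampus and -0.26 in cortex at 12 weeks, while the median over all clusters was within 0.002 of 0 each time. By the study's own rule of 1.5-fold or 0.66-fold without a test, 0 of 6 genes were reached in any comparison, where the rule takes 0.121% of all clusters in hippocampus at 6 weeks, 1.25% in cortex at 6 weeks, 0.23% in hippocampus at 12 weeks and 0.827% in cortex at 12 weeks.

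**Figure D3:**
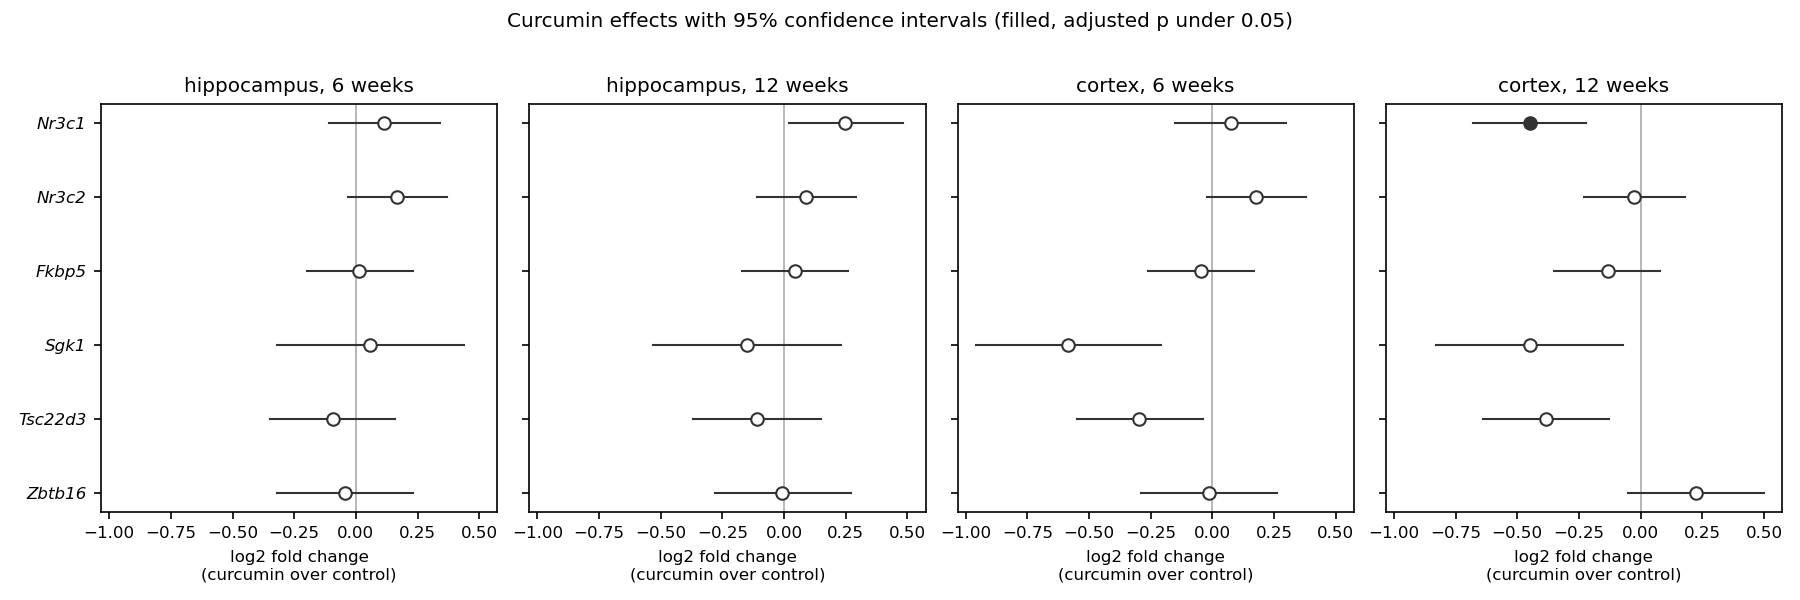
Log2 fold change, curcumin over control (horizontal axis), of the 6 genes in each tissue and duration. Points are differences of the means of 2 arrays, bars are 95% confidence intervals from the limma fit of all 16 arrays, and the filled point passed at an adjusted p under 0.05. Only Nr3c1 in 12-week cortex is filled, at -0.45, and the widest intervals are those of Sgk1.

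The third question was whether the 12-week and 6-week groups differ within a diet. Nr3c1 fell by 0.44 in 12-week relative to 6-week curcumin cortex (SE 0.103, limma adjusted p = 0.0459), a call that uses the same 12-week curcumin arrays as the diet comparison. The arrays read 8.41 and 8.45 at 12 weeks and 8.70 and 9.05 at 6 weeks, and without the high 6-week replicate 2, 1 of the arrays with raised striatal markers, the value was -0.26 (adjusted p = 0.222). It was also lost without either 12-week array (adjusted p = 0.14 and 0.154). In this comparison 3.24% of all clusters passed and 1.55% were lower. In control cortex the Nr3c1 difference was 0.09 (adjusted p = 0.708), with 8.87 and 8.89 at 12 weeks and 8.86 and 8.74 at 6 weeks.

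None of the other genes passed with duration. In hippocampus Tsc22d3 differed by 0.26 on curcumin (8.10 and 8.09 at 12 weeks against 7.84 and 7.83 at 6 weeks) and by 0.27 on control chow (8.19 and 8.21 at 12 weeks against 7.99 and 7.87 at 6 weeks, limma adjusted p = 0.331 and 0.247). The 12-week hippocampal arrays lay above the 6-week arrays in both diets. Zbtb16 had differences of -0.22 on curcumin and -0.26 on control chow in hippocampus (adjusted p = 0.461 and 0.32), again with no overlap between durations. The Nr3c2 differences in hippocampus were 0.14 on curcumin and 0.22 on control chow (adjusted p = 0.54 and 0.24). Without the 6-week array high in choroid plexus genes, the values on curcumin and control chow were 0.26 and 0.21 for Tsc22d3, -0.36 and -0.21 for Zbtb16, and 0.09 and 0.32 for Nr3c2, and none passed. In control cortex the Sgk1 difference was -0.37 (adjusted p = 0.224). In these comparisons 2.27% of all clusters passed in curcumin hippocampus, 4.27% in control hippocampus and 8.85% in control cortex, where 0 of 6 genes did. Time on the chow, age at the end of it and the time at which the samples were processed cannot be told apart in these groups.

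The pathway around these genes was read from 7 lists. Of 20 measured targets of the glucocorticoid receptor other than the genes above, 0 passed in any of the 4 curcumin comparisons. At an unadjusted p under 0.05 the counts were 0 in hippocampus and 8 in cortex at 6 weeks, and 1 in hippocampus and 7 in cortex at 12 weeks, where 2.03% and 12% of all clusters at 6 weeks and 5.11% and 15.1% at 12 weeks were under it. The list leaned negative in cortex at 6 weeks, with 17 of 20 targets below 0 and a median of -0.24. At 12 weeks 15 of 20 were below 0 in cortex with a median of -0.11, while in hippocampus the medians were -0.01 and -0.02 at 6 and 12 weeks. The targets with the largest moderated t were both in 6-week cortex. Cdkn1a, the cell cycle inhibitor p21, read 6.60 and 6.65 with curcumin against 7.01 and 7.21 in controls (-0.48, SE 0.1, limma adjusted p = 0.0947). Pdk4, a kinase that restrains glucose oxidation, read 6.86 and 7.14 with curcumin against 7.59 and 8.03 in controls (-0.81, SE 0.228, adjusted p = 0.183). These control arrays are those with high striatal (replicate 1) and olfactory bulb markers (replicate 2). Without replicate 1 the values were -0.58 for Cdkn1a (adjusted p = 0.0273) and -1.03 for Pdk4 (adjusted p = 0.073), and without replicate 2 they were -0.38 (adjusted p = 0.517) and -0.59 (adjusted p = 0.714).

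Chaperones that hold the receptors ready for hormone fell in 12-week cortex, 3 of 12 measured, against 3.24% of all clusters. Dnajb1, an Hsp40 that hands clients to Hsp70, read 8.03 and 8.0 with curcumin against 8.58 and 8.37 in controls (-0.46, SE 0.0795, limma adjusted p = 0.0131). Hsp90aa1, the inducible Hsp90, read 11.17 and 11.00 with curcumin against 11.41 and 11.37 in controls (-0.31, SE 0.0656, adjusted p = 0.0296). Ptges3, the p23 cochaperone, read 7.82 and 7.74 with curcumin against 8.10 and 8.32 in controls (-0.43, SE 0.102, adjusted p = 0.0464). None of these 3 pairs of groups overlapped. The controls also differed between durations. Dnajb1 was higher by 0.55 and Ptges3 by 0.64 in 12-week relative to 6-week control cortex (limma adjusted p = 0.00373 and 0.00515). That comparison uses the same 12-week control arrays. The list's median in 12-week cortex was -0.17, with 10 of 12 below 0, and in the other 3 curcumin comparisons 0 of 12 passed, with medians from -0.08 to 0.02.

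Of 8 measured coregulators, 2 passed in 12-week cortex, both higher. In that comparison 3.24% of all clusters passed and 1.64% were higher. Smarca4, the BRG1 ATPase that remodels chromatin for the receptor, read 8.85 and 8.91 with curcumin against 8.47 and 8.57 in controls (0.36, SE 0.0622, limma adjusted p = 0.013). Crebbp, the acetyltransferase CBP, read 8.77 and 8.70 with curcumin against 8.32 and 8.44 in controls (0.36, SE 0.0666, adjusted p = 0.0177). H6pd, which supplies the cofactor with which Hsd11b1 regenerates corticosterone, read 6.41 and 6.46 with curcumin against 6.11 and 6.11 in controls (0.33, SE 0.0647, adjusted p = 0.0216), the only 1 of 7 genes of hormone activation and export to pass. Here too the controls differed between durations. In 12-week relative to 6-week control cortex all 8 coregulators had negative differences (median -0.25), and Crebbp passed at -0.31 (adjusted p = 0.0179), with 8.32 and 8.44 at 12 weeks against 8.66 and 8.71 at 6 weeks. In that contrast Smarca4 was at -0.20 (adjusted p = 0.0697) and H6pd at -0.19 (adjusted p = 0.102). The coregulators' shift between durations was not limited to control cortex. In hippocampus all 8 were negative too, with medians of -0.24 on curcumin and -0.29 on control chow. In curcumin cortex 4 of 8 were negative (median -0.05). The cortical effect at 12 weeks minus that at 6 weeks was 0.42 for Crebbp (adjusted p = 0.0576) and 0.29 for Smarca4 (adjusted p = 0.138), while Dnajb1 passed in that contrast (-0.67, adjusted p = 0.0237). The 6 curcumin calls of list genes in 12-week cortex were each lost on leaving out single arrays (any of 2, 3 or all 4 of the arrays of the comparison), and also in the fit of 8 cortical arrays (adjusted p = 0.0892 to 0.139).

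In the remaining lists 0 genes passed in a curcumin comparison: 0 of 11 central stress peptides and receptors, 0 of 13 aldosterone targets and Sgk1 partners, and 0 of 13 paralogs. Their medians lay between -0.07 and 0.05. At an unadjusted p under 0.05 the largest counts were 3 of 11 stress genes in 12-week cortex, 3 of 13 aldosterone genes in 6-week cortex and 3 of 13 paralogs in cortex at each duration. Of all clusters, 12% were under it in 6-week cortex and 15.1% in 12-week cortex. Ndrg1, a substrate of the Sgk1 kinase that is also abundant in myelinating cells, read 8.60 and 9.01 in 6-week curcumin cortex against 9.50 and 9.22 in 6-week control cortex (-0.56, SE 0.194, limma adjusted p = 0.268). Wnk1, a kinase of salt transport, read 9.43 and 9.56 with curcumin against 9.85 and 9.85 in controls there (-0.36, adjusted p = 0.188), and Crhbp, which sequesters the peptide Crh, read 6.76 and 6.99 with curcumin against 6.30 and 6.50 in controls (0.47, adjusted p = 0.237). The receptor paralog Pgr, for progesterone, had a difference of 0.64 (adjusted p = 0.12), and Zbtb20, a zinc finger relative of Zbtb16, of -0.58 (adjusted p = 0.186), both in 6-week cortex. Over the 4 arrays left out in turn, the 6-week cortical values ran from -0.77 to -0.35 for Ndrg1, -0.42 to -0.29 for Wnk1, 0.35 to 0.59 for Crhbp, 0.42 to 0.86 for Pgr and -0.75 to -0.41 for Zbtb20. Pgr passed without control replicate 1, the array high in striatal markers (0.86, adjusted p = 0.0143), and the others did not pass. Adcyap1r1, the receptor of the peptide PACAP, had 0.48 in 12-week cortex (adjusted p = 0.131).

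**Figure D4:**
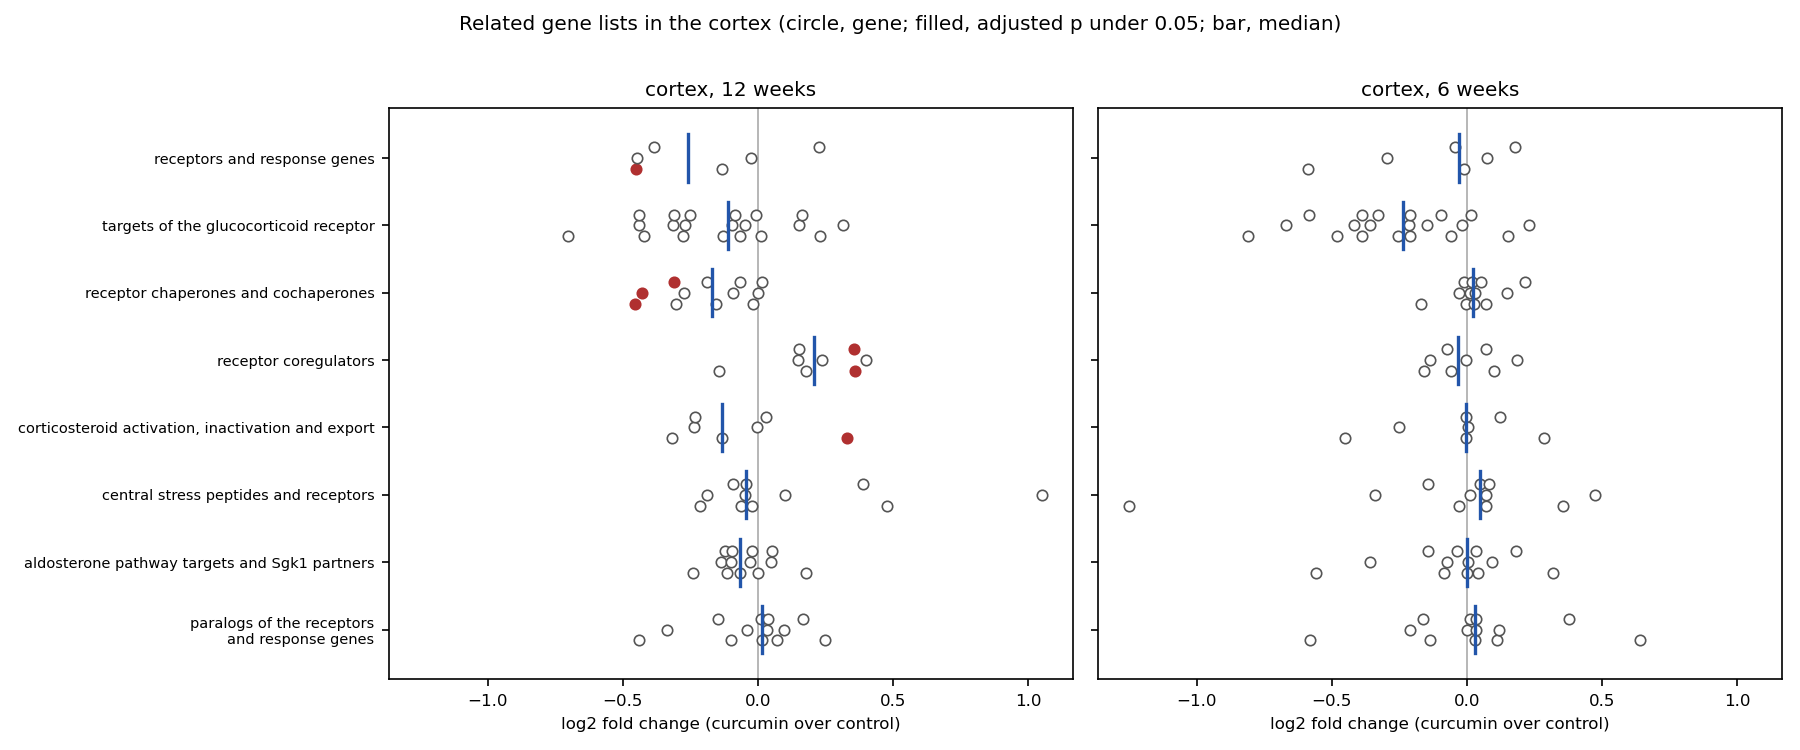
Log2 fold change, curcumin over control (horizontal axis), of every measured gene of the 7 related lists and of the 6 genes in 12-week cortex (left) and 6-week cortex (right). Circles are genes, filled where the limma adjusted p was under 0.05, and bars are medians. In 12-week cortex 3 chaperones are filled left of 0 and 2 coregulators and 1 hormone activation gene right of 0, while none of the listed genes is filled in 6-week cortex.

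Between durations, list genes passed mostly among chaperones and coregulators. St13, a cochaperone that binds Hsp70, was lower at 12 weeks in all 4 comparisons of durations (-0.44 on curcumin and -0.31 on control chow in hippocampus, -0.33 on curcumin and -0.41 on control chow in cortex, limma adjusted p = 0.00477 to 0.0244). Cdc37, an Hsp90 cochaperone for kinases, was higher at 12 weeks in curcumin hippocampus (0.31) and control cortex (0.26). The Hsp70 family genes Hspa8 (-0.23) and Hspa4 (-0.27) were lower at 12 weeks in curcumin cortex. Among coregulators, Ncoa1 (-0.36), Ncoa2 (-0.41) and Ep300 (-0.42) were lower at 12 weeks in control hippocampus, and Ncoa2 (-0.37), Ncoa3 (-0.43) and Ep300 (-0.52) in control cortex beside Crebbp. Wnk1 (-0.60) and Zbtb20 (-0.59) were also lower there. Taken over the 81 list genes, 2.47% passed in curcumin hippocampus, 4.94% in control hippocampus, 3.7% in curcumin cortex and 12.3% in control cortex, against the shares of all clusters given above. Each of these duration calls other than that of Dnajb1 was lost on leaving out at least 1 of the 4 arrays.

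Between tissues 12 of the 81 list genes passed, which is 14.8%, where 9.67% of all clusters did. Abcb1b, an efflux pump, was higher in hippocampus by 0.73 (7.02 in hippocampus and 6.29 in cortex, limma adjusted p = 8.06e-06), and Hsd11b1 by 0.45 (8.44 in hippocampus and 7.99 in cortex, adjusted p = 5.63e-04). Higher in hippocampus were also the coactivator Ncoa1 (0.35), Zbtb20 (0.82), the immunophilin Fkbp1a (0.42), the sodium pump subunit Atp1b1 (0.16), and the receptor targets Bcl6 (0.50) and Nedd9 (0.25). Lower in hippocampus were Crh, the peptide that starts the stress response, (-0.25), and its binding protein Crhbp (-0.29, adjusted p = 0.0337). The Crhbp call was weak, being lost in 17 of 28 alternatives, with 11 of 16 single arrays left out among them (-0.42 to -0.16, adjusted p up to 0.578). That of Atp1b1 was lost without 1 of the 16 arrays, and the other 10 held without any single array. Over all 28 alternatives the call was lost in 6 for Atp1b1 (adjusted p up to 0.302), in 3 for Nedd9 (up to 0.422), and in 2 each for Bcl6 and Crh. It was lost in 1 each for Per1, Dusp1, Hsd11b1 and Fkbp1a, and in 0 for Ncoa1, Abcb1b and Zbtb20. The targets Per1 and Dusp1 were lower in hippocampus as well (-0.37 and -0.70). Per1 is also a clock gene and Dusp1 is induced by neuronal activity. All 8 measured activity-induced genes had negative tissue differences, 7 of which passed (median -0.65), where 9.67% of all clusters passed. The part of activity or of the clock in the Per1 and Dusp1 values was not tested. With 4 of 20 receptor targets passing, 2 in each direction, the list's median was 0.05.

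Across the 16 arrays the genes followed each other only in part. With the mean of each tissue taken away, Fkbp5 correlated at 0.63 with both Nr3c1 and Sgk1, Sgk1 at 0.43 with Tsc22d3, and Zbtb16 at -0.27 to -0.05 with the 5 others. The receptors correlated with each other at 0.35. These values describe 16 arrays that share dissections and groups, and no test was made of them.

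The named clusters most like each gene on that measure, out of 9140 at or above the median signal, also differed from gene to gene. They were Tmem68 (r = 0.91), Vmp1 (0.89) and Desi2 (0.89) for Nr3c1, and C20h6orf136 (0.79), Cog8 (0.77) and Lsm8 (0.74) for Nr3c2. For Fkbp5 they were Nek7, Lman2 and Clcc1 (0.84 each). For Sgk1 they were Pbld1 (0.91), Adipor1 (0.91) and Pnrc2 (0.89), for Tsc22d3 Laptm4b (0.92), Pgpep1 (0.89) and Slc40a1 (0.87), and for Zbtb16 Ift88 (0.85), Arnt (0.83) and Sik2 (0.83). Without removing the tissue means, the values were 0.91 to 0.93 for the 3 clusters of Sgk1 and -0.20 to 0.37 for those of Zbtb16. With 9140 candidates and 16 arrays, such values are a description only.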

How the data were processed

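The arrays hold RNA of hippocampus and cortex, 2 arrays in each of 8 groups of tissue, diet and duration. The deposited values are log2 signals of 27342 transcript clusters, made by the authors from Affymetrix arrays with Expression Console and RMA, which corrects background, normalizes between arrays and sums probes. Gene Spring is also named, and no version is given in the sources used here. According to the study's methods these were rat exon arrays, but the platform annotation of the clusters is that of a gene array, a difference not settled here. No probe data were used, so signal over background was not examined. There were 0 missing values, and array medians ran from 6.35 to 6.44.

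A single linear model with a mean for each of the 8 groups was fitted to all 16 arrays, using limma 3.58.1 (R 4.3.3, default eBayes). It had 8 residual and 3.12 prior degrees of freedom. Within each comparison, Benjamini-Hochberg adjustment covered every cluster, and an adjusted p under 0.05 was a call. No filter on dim clusters was set. A gene was read from the cluster that lists its symbol alone, the brightest one where a list gene had several. Symbols came from the platform annotation, and coordinates and promoter windows from RefSeq on GRCr8 through Python 3.11.15. Of the clusters, 15097 list a lone symbol, 323 list several and 11922 list none. The steps were tested on simulated data first.

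The genes and the 7 pathway and 13 marker lists were chosen with earlier results of these data known. Of the pathway lists, genes that passed in a curcumin comparison are named, otherwise the 2 of largest moderated t, and genes that passed between tissues or durations were named with their values known. Likeness is Pearson's r over 16 arrays after each tissue's mean was taken away. Both tissues came from the same rats, but no source used here says whether pools of the same number hold the same rats, so the main fit has no block. Alternatives were removal of clusters under the 25th percentile of mean signal, quantile normalization (all arrays together, or by tissue), each array left out, fits on fewer arrays, a variance trend, array weights, a replicate block, single diets, and other thresholds. Subsets by duration and a comparison without the arrays high in choroid plexus genes were added after seeing the data.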

Additional observations from a re-analysis of the deposited data

Results flagged for a closer look

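After 12 weeks, curcumin arrays lay above control arrays in hippocampus and below them in cortex for Nr3c1 and for Fkbp5. These genes were flagged for this pattern. Each comparison is 2 arrays against 2, and the share of all clusters that separate in opposite directions was not counted. The pattern is therefore a description only, and opposite effects in the tissues were not shown. The difference between the effects was tested and did not pass for either gene. It was 0.70 for Nr3c1 (SE 0.146; limma adjusted p = 0.0923) and 0.18 for Fkbp5 (SE 0.139; adjusted p = 0.768).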

How the results depend on the processing

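With 2 arrays per group, values of single genes were limited by the spread between arrays, and the direction of the 5 called values held in every alternative that was run. The tissue difference of Nr3c2 passed in all of 28 alternatives (1.06 to 1.35). That of Fkbp5 was lost in the 6-week groups alone (0.23), and that of Zbtb16 on curcumin chow alone (0.25) and in the 12-week groups alone (0.23). Leaving out each array gave 1.18 to 1.23 for Nr3c2, 0.31 to 0.39 for Fkbp5 and 0.27 to 0.36 for Zbtb16, with 3 genes called each time.

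The 12-week cortical value of Nr3c1 stayed at -0.45 and lost its call in the fit of 8 cortical arrays, in the fit of 4 arrays (0 genes called in both) and under the 1.5-fold rule (-0.45, 0 genes called). Leaving out each array gave -0.47 to -0.43, with 0 to 1 gene called, the 1 being Tsc22d3 without control replicate 2. The difference of Nr3c1 between durations in curcumin cortex, -0.44, lost its call in the fits of 8 and of 4 arrays and with array weights (-0.44, 0 genes called). Leaving out each array gave -0.61 to -0.26, with 0 to 1 gene called. The contrast of tissues at 12 weeks gained 1 gene, Nr3c1, under both quantile normalizations (0.69 and 0.68) and at an adjusted p under 0.1. The cortical contrast of durations gave 0 to 1 gene over the arrays left out. The 2 arrays high in choroid plexus genes, left out together, changed no call.

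With the replicate number as a replicate block, Nr3c1 in 12-week cortex was -0.45 (adjusted p = 0.0483) and its difference between durations -0.44 (adjusted p = 0.0547, 0 genes called), and no other call on the 6 genes changed. Deviations of same-numbered arrays correlated at -0.43 to 0.04 between diets and at -0.15 to 0.16 between tissues, so the numbers of the diets are not shown to pair. The tissues share rats, and whether equal numbers mark the same pool is not given. A block for the pool gave 1.20, 0.35 and 0.32 for the tissue differences of Nr3c2, Fkbp5 and Zbtb16 (adjusted p = 8.2e-06, 0.0101 and 0.0212) and changed no call on the 6 genes.

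Counts over all clusters moved more. In 12-week cortex 885 clusters passed, against 22 in the fit of 8 arrays, 2 in that of 4 arrays, 1617 at an adjusted p under 0.1 and 26 to 447 without single arrays. In 6-week cortex 29 passed, against 0 with array weights, 1 with the replicate block, 49 without clusters under the 25th percentile of signal, 104 with a variance trend, 161 at an adjusted p under 0.1 and 1 to 758 without single arrays. Between tissues 2645 passed, against 823 in the 6-week groups alone and 1879 to 3009 without single arrays. A choice among several clusters of a gene could not be varied, since each of the 6 genes has 1.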
